A study of Homo sapiens with 2 samples.

Results

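The integrated stress response was followed in QGP1 cells through 10 genes: the kinases EIF2AK3 and EIF2AK4, the transcription factors ATF3, ATF4, ATF5, DDIT3 and CEBPB, the transcriptional cofactor NUPR1, the pseudokinase TRIB3 and the phosphatase subunit PPP1R15A. All probe sets whose single gene symbol in the platform annotation was one of these names were taken, which gave 19 of the 54613 probe sets compared, and the 10 genes are part of 19775 with a named probe set. QGP1 is an established human cell line from a pancreatic neuroendocrine tumour. One array was hybridised with RNA of ALDH high QGP1 cells, which were sorted by flow cytometry for high activity of aldehyde dehydrogenase, a property used to enrich for cells with stem-like traits, and 1 array with RNA of control QGP1 cells. No other treatment is given for either group, and the labels do not say whether control cells were sorted as well. The extraction protocol speaks of tissue, whereas the labels name the cell line as the source of both RNAs. With 1 array per group no difference has a replicate check, so none carries a test or an SD between replicates. All values are log2 RMA levels of a probe set, and all differences are ALDH high minus control on that scale.

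In the integrated stress response, kinases that sense ER stress (EIF2AK3, also called PERK), amino acid shortage (EIF2AK4, GCN2), heme shortage or mitochondrial stress (EIF2AK1, HRI) and double-stranded RNA (EIF2AK2, PKR) phosphorylate the initiation factor eIF2. General translation then drops while a few mRNAs with upstream open reading frames, ATF4 and ATF5 among them, are translated more. ATF4 protein, often with a C/EBP partner, activates genes of amino acid supply and further regulators such as DDIT3 (CHOP), ATF3 and TRIB3. PPP1R15A (GADD34) brings protein phosphatase to eIF2 and ends the response. Arrays read mRNA, so neither the phosphorylation of eIF2 nor the translation of ATF4 was measured.

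Promoter windows of 250 bases before to 50 bases after a transcript start were taken from RefSeq on GRCh38.p14, and 9 of the 10 genes had at least 1 window there, NUPR1 being the exception. The array values themselves carry no genome build. The 4 windows printed are those of TRIB3 and DDIT3, which had the largest differences, of ATF3, which held a match to the C/EBP-ATF response element through which ATF4 acts, and of PPP1R15A, which held a full cAMP response element. They lie at chr20:381045-381344 on the plus strand (TRIB3), chr12:57520465-57520764 on the minus strand (DDIT3), chr1:212565157-212565456 on the plus strand (ATF3) and chr19:48872171-48872470 on the plus strand (PPP1R15A). Each window holds sequence upstream of a transcript start and the first bases of the transcript, and it is written 5′ to 3′ on the strand of the gene. Capitals mark a match to a searched motif, and the TRIB3 window held none.
TRIB3: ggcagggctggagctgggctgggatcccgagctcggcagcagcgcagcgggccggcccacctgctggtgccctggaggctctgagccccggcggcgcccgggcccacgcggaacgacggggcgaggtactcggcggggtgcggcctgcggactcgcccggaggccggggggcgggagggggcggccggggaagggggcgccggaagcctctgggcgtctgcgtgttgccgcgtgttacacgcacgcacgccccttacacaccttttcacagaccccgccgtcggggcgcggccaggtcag
DDIT3: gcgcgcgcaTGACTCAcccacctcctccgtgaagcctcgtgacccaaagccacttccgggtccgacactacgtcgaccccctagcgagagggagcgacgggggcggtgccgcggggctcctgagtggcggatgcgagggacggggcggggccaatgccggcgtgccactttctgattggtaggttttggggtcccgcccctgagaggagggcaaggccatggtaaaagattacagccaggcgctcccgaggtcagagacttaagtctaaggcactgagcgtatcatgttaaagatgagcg
ATF3: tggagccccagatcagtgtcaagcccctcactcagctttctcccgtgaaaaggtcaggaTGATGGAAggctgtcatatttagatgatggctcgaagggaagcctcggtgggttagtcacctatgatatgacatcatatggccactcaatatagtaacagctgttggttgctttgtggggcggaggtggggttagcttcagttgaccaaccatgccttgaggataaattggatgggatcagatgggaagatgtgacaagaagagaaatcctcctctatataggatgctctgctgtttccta
PPP1R15A: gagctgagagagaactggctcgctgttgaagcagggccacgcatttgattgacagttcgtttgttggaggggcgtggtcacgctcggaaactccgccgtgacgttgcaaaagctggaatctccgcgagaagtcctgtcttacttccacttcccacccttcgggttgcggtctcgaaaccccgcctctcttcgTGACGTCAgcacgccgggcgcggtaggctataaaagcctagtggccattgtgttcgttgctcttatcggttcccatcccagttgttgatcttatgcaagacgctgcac

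The motifs were searched on both strands over 35116 windows of the same length. TGATGNAA, the C/EBP-ATF response element, was found in 3.62% of all windows and, among the 10 genes, in ATF3 alone, beginning at position -191 from the upstream of its 2 listed starts. TGACGTCA, the palindromic cAMP response element, was in 1.85% of windows and began at position -58 from the start of PPP1R15A. TGANTCA, the AP-1 site, was in 7.71% of windows and was found in DDIT3, ATF5 and EIF2AK4. Counted by gene, with a match in any window of the gene, the shares over all genes were larger. They were 4.46% for TGATGNAA, 2.25% for TGACGTCA and 9.37% for TGANTCA. TTGCGCAA, a C/EBP site (0.151% of windows), and the ER stress element, CCAAT and CCACG with 9 bases between them (0.0769%), were found in none of the 9 genes, and no motif matches overlapped. A match here is only these letters in this window.

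All 10 genes had a lower level in ALDH high cells on their brightest probe set, and 5 of them, TRIB3, DDIT3, ATF3, CEBPB and ATF5, were over 2-fold lower, the threshold of the series description. Over all genes 50.3% lay below 0, 1.23% were over 2-fold lower and 0.465% over 2-fold higher, and none of the 10 was over 2-fold higher. Among genes with a mean level at or above the median of all probe sets, 1.66% were over 2-fold lower. With the mean over the probe sets of each gene, 3 of the 10, TRIB3, DDIT3 and CEBPB, were over 2-fold lower, against 0.824% of all genes. The median difference of the 10 genes was -1.02, against -0.01 over all genes. These 10 genes were chosen with earlier results of these data known, so their counts and median are no independent evidence. At the level of probe sets, 15 of the 19 were lower, 6 were over 2-fold lower and none was over 2-fold higher, while of all probe sets 46.9% were lower, 0.842% over 2-fold lower and 0.403% over 2-fold higher. At a threshold of 1.5-fold, 6 of the 10 genes were lower, against 4.21% of all genes, and at 3-fold 4 of the 10, against 0.293%. As a yardstick, the differences of probe sets of the same gene had a pooled SD of 0.23 over 10523 genes with several, which leaves out the spread between cultures and sorts.

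**Figure D1:**
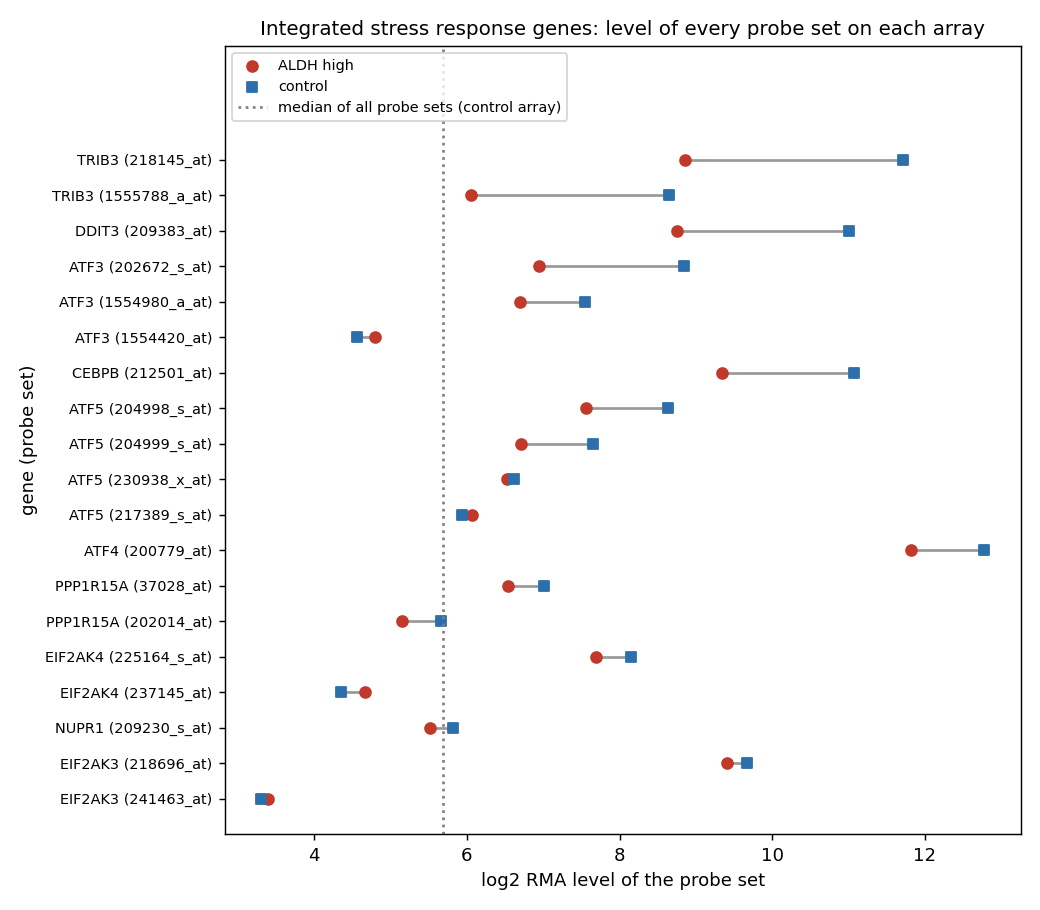
Log2 RMA level (horizontal axis) of each of the 19 probe sets (vertical axis, ordered by the difference of the gene's brightest probe set) in ALDH high cells (red circles) and control cells (blue squares), with the control array's median level dotted. The circle lies left of the square in 15 probe sets, by most for both TRIB3 probe sets, and right of it in 4.

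The kinases differed little. EIF2AK3, the ER stress sensor, had a level of 9.41 in ALDH high and 9.67 in control cells on its brightest probe set, a difference of -0.26 that is close to the spread between probe sets of a gene. Its other probe set was dim on both arrays, at 3.39 in ALDH high and 3.30 in control cells, and 73 probe sets shared that size of difference to 6 decimals. EIF2AK4, the sensor of uncharged tRNA, had 7.70 in ALDH high and 8.16 in control cells (-0.46) on a probe set whose _s_at suffix marks shared targets. The remaining EIF2AK4 probe set pointed the other way, with 4.67 in ALDH high and 4.34 in control cells, both below the array medians of 5.68 and 5.69. The mean over both EIF2AK4 probe sets was -0.07, so the direction of this gene depended on the probe set.

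ATF4, the central transcription factor of the response, was 1.94-fold lower in the deposited values, just short of the threshold. Centring on either set of array controls, described further below, took it past 2-fold. Its only probe set stood at 11.82 in ALDH high and 12.78 in control cells. These levels exceeded 98.2% of probe sets on the ALDH high array and 99.2% on the control array. The difference of -0.95 was the 277th lowest of 19775 genes.

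The transcription factors that act after ATF4 had larger differences. DDIT3, which encodes CHOP, a C/EBP family protein linked to cell death under lasting stress, had 8.76 in ALDH high and 11.01 in control cells on its single probe set, a 4.77-fold lower level and the 20th lowest difference of all genes. CEBPB, a C/EBP factor that dimerises with CHOP and ATF4, had 9.34 in ALDH high and 11.07 in control cells, again on a single probe set, and was 3.32-fold lower. Both probe sets were bright on both arrays and carried no shared-target suffix.

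For ATF3 and ATF5 the size depended on the probe set. ATF3, a stress-induced repressor and activator, had 6.95 in ALDH high and 8.84 in control cells on its brightest probe set (-1.89). A second probe set of ATF3 gave 6.70 in ALDH high and 7.54 in control cells (-0.85), and a dim one gave 4.80 in ALDH high and 4.56 in control cells (0.24). The mean over the 3 ATF3 probe sets was -0.83, so ATF3 was over 2-fold lower on the brightest probe set only.

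ATF5, a translationally controlled relative of ATF4 with a role in the mitochondrial stress response, was represented by 4 probe sets, all with a suffix for shared targets. The brighter pair agreed in direction and size. It gave 7.56 in ALDH high and 8.64 in control cells (-1.08), and 6.71 in ALDH high and 7.66 in control cells (-0.95). The dimmer pair was nearly level between the arrays, with 6.52 in ALDH high and 6.62 in control cells (-0.10), and 6.07 in ALDH high and 5.94 in control cells (0.13). The mean over all 4 ATF5 probe sets was -0.50.

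NUPR1, a small stress-induced chromatin protein, lay near the median level of all probe sets on both arrays, by its single probe set. It had 5.52 in ALDH high and 5.81 in control cells, a difference of -0.30 on a probe set with an _s_at suffix. These levels lay at percentile 47.1 of the ALDH high array and percentile 52.2 of the control array.

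The feedback regulators differed unevenly. TRIB3, a pseudokinase that is induced by ATF4 and CHOP and restrains both, showed the largest difference of the 10 genes and the 11th lowest of all genes. Its brightest probe set stood at 8.86 in ALDH high and 11.72 in control cells, and the other at 6.06 in ALDH high and 8.64 in control cells. The differences of -2.86 (7.26-fold lower) and -2.59 lay close together.

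PPP1R15A, the stress-induced subunit that directs protein phosphatase 1 to eIF2, was 1.39-fold lower, with 6.54 in ALDH high and 7.01 in control cells on its brightest probe set. Its second probe set, below the median on both arrays, gave 5.16 in ALDH high and 5.66 in control cells. The differences of -0.47 and -0.50 were nearly equal. Of the 6 genes with several probe sets, TRIB3 and PPP1R15A were the 2 whose probe sets all pointed the same way.

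**Figure D2:**
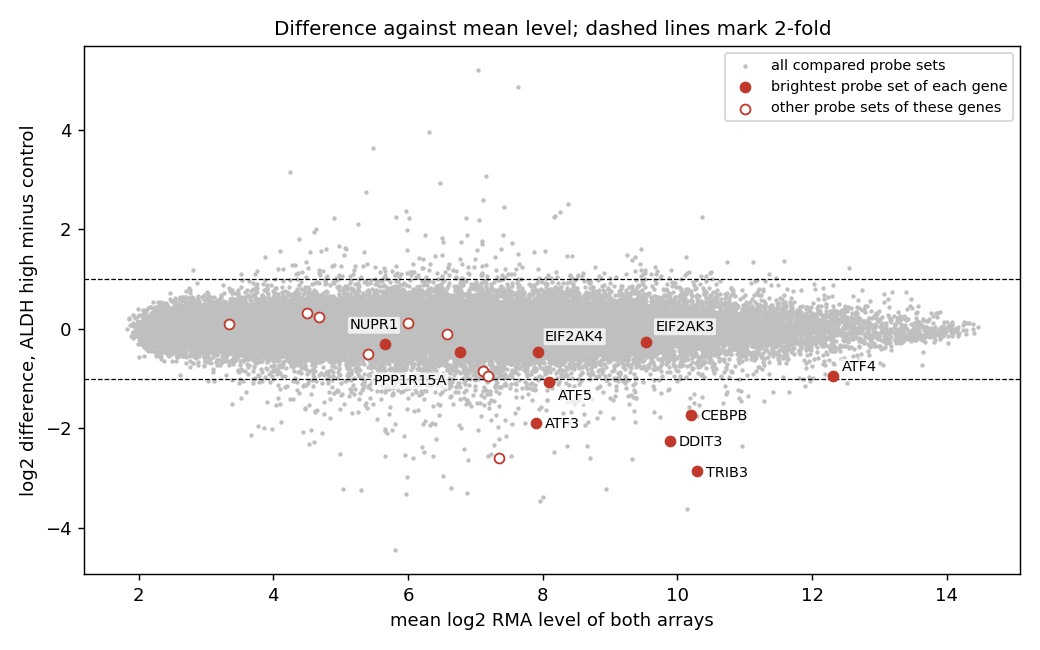
Log2 difference, ALDH high minus control (vertical axis), against the mean log2 RMA level of both arrays (horizontal axis) for all 54613 compared probe sets (grey), the brightest probe set of each of the 10 genes (filled red) and their 9 other probe sets (open red). TRIB3, DDIT3, CEBPB, ATF3 and ATF5 lie below the lower 2-fold line, and the 4 open circles above 0 lie at mean levels from 3.35 to 6.01.

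Genes of the wider eIF2 machinery were nearly level between the arrays on their brightest probe sets. Of 11 eIF2 kinases and regulators of these kinases, which include EIF2AK3 and EIF2AK4, 7 lay below 0, none was over 2-fold different and the median was -0.15. Of all 19775 genes, 50.3% lay below 0 and 9012 genes above 0, while 1.23% were over 2-fold lower and 0.465% over 2-fold higher. The lack of 2-fold differences in this list and the next lies near these shares. Among the kinases and their regulators the largest difference was that of IMPACT, an inhibitor of GCN2 activation, with 8.27 in ALDH high and 8.88 in control cells (-0.61). EIF2AK1 (-0.15) and EIF2AK2 (0.10), named after their values were seen to complete the kinases, differed by less than the spread between probe sets of a gene. Of 19 genes for eIF2, its exchange factor eIF2B, the phosphatase and related initiation factors, 12 lay above 0, none was over 2-fold different and the median was 0.05, but -0.27 with 1 gene above 0 when centred on the poly-A controls, RNAs added before labelling, a scaling that moved the median of all genes to -0.32. The largest differences there on the brightest probe sets were 0.32 for EIF5, the GTPase activator of eIF2, and 0.30 for EIF2B5, the catalytic subunit of eIF2B. Other probe sets of this list differed by more, up to 0.86 for DENR, 0.74 for EIF2B5 and 0.62 for EIF5. The lowest was -0.37, for PPP1CB. PPP1R15B, the constitutive counterpart of PPP1R15A, differed by -0.13 (named after its value was seen).

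On their brightest probe sets, other ATF, CREB and C/EBP factors were mostly lower, by less. Of 20 measured, 14 lay below 0, 1 was over 2-fold lower, none was over 2-fold higher and the median was -0.39. Over all genes 50.3% lay below 0 and 1.23% were over 2-fold lower. Centred on the poly-A controls, 6 were over 2-fold lower, against 3.02% of all genes. As the mean over probe sets 12 lay below 0, 7 lay above 0, 1 was over 2-fold lower and the median was -0.20. JDP2, a repressor of the AP-1 family closely related to ATF3, was the gene over 2-fold lower, with 5.31 in ALDH high and 7.53 in control cells (-2.22), the ALDH high level being below the array median. The other JDP2 probe set differed by 0.08. CREM, a cAMP-responsive factor, followed with 9.30 in ALDH high and 10.25 in control cells, and all of its 6 probe sets were lower, from -1.07 to -0.24. The paralogues of TRIB3, pseudokinases that recruit ubiquitin ligases, differed little beside the -2.86 of TRIB3, by -0.38 for TRIB1 and -0.11 for TRIB2.

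Target genes of ATF4 and CHOP were lower in most cases. Of 37 measured, 35 lay below 0, 15 were over 2-fold lower and none was over 2-fold higher, with a median of -0.84. The shares over all genes were 50.3% below 0 and 1.23% over 2-fold lower. Centred on the poly-A controls, 24 were over 2-fold lower, against 3.02% of all genes under that centring. This list was drawn up with earlier results of these arrays known, and several of its genes were among those with the largest differences there, so its count is no independent evidence. The largest differences were those of INHBE, an activin subunit (-4.45), NIBAN1, a stress-induced regulator of translation (-3.38), DDIT4, an inhibitor of mTORC1 (-2.89), ALDH1L2, a mitochondrial folate enzyme (-2.56), STC2, a secreted glycoprotein (-2.36), and SESN2, a leucine sensor that restrains mTORC1 (-1.89). INHBE had 3.59 in ALDH high and 8.04 in control cells, so its ALDH high level lay well below the array median and the size of its difference rests on a dim level. NIBAN1 had 6.31 in ALDH high and 9.69 in control cells, and both of its probe sets were over 2-fold lower. STC2 had 7.48 in ALDH high and 9.84 in control cells, also with both probe sets over 2-fold lower. The 2 targets not below 0, singled out after their values were seen, were ADM2, which was equal on both arrays at 6.66, and the BH3-only gene BCL2L11 (0.21). Of the 31 target genes with a promoter window, 8 held TGATGNAA, a share of 25.8%, against 4.46% of all genes with a window. The share was not particular to the targets, since 4 of 18 other ATF, CREB and C/EBP factors (22.2%) held the motif too. CEBPG counts in both lists. Some of the target genes are known as ATF4 targets through that motif, so their share is no independent evidence.

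Genes of the other branches of the unfolded protein response, which run through ATF6 and IRE1, were lower by smaller amounts. Of 21 measured, 19 lay below 0 and 2 were over 2-fold lower, with a median of -0.45. The shares over all genes were 50.3% below 0 and 1.23% over 2-fold lower. As the mean over probe sets 1 was over 2-fold lower, against 0.824% of all genes. When centred on the poly-A controls 4 were, against 3.02% of all genes. HERPUD1, a factor of ER-associated degradation that ATF4 can also induce, had 10.37 in ALDH high and 11.72 in control cells (-1.35), and its second probe set differed by -0.32. EDEM1, which hands misfolded glycoproteins to degradation, had 8.44 in ALDH high and 9.47 in control cells (-1.03). The ER stress element was found in 6 of the 22 promoters of this list that had a window, against 0.0916% of all genes. The genes were listed as known members of these arms, so this share is no independent evidence. CEBPG, ATF6, ATF6B and DNAJC3 each belong to 2 of the lists.

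**Figure D3:**
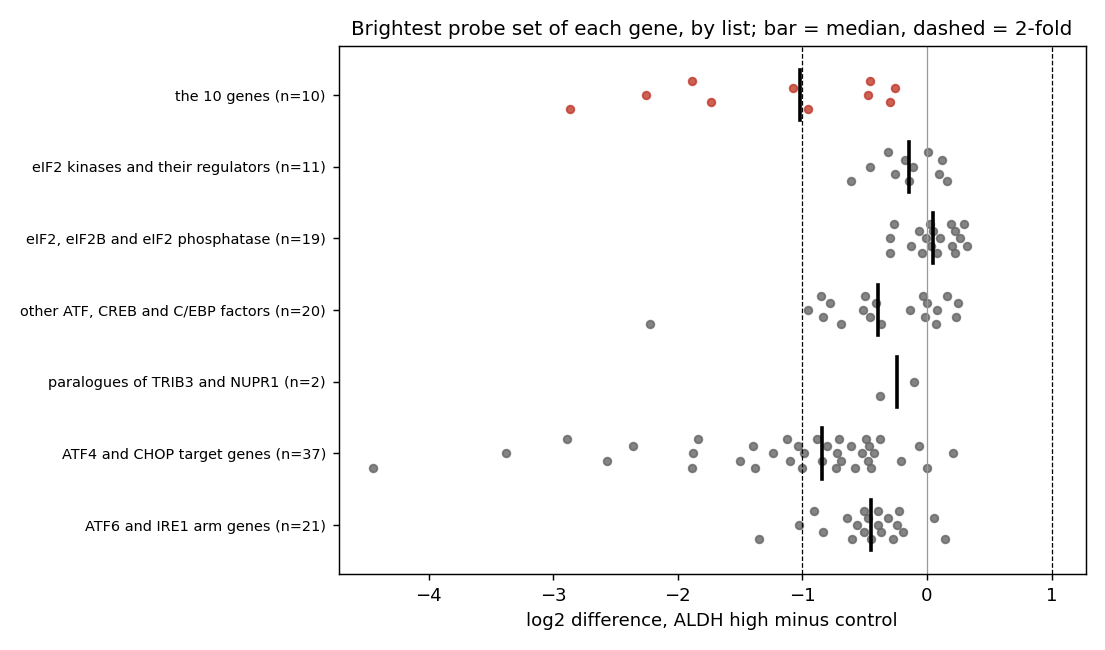
Log2 difference, ALDH high minus control (horizontal axis), of the brightest probe set of each gene, for the 10 genes (red) and 6 further lists (grey), with each list's median as a black bar. The medians are -1.02 for the 10 genes, -0.15 for the eIF2 kinases and regulators, 0.05 for eIF2, eIF2B and phosphatase, -0.39 for other ATF, CREB and C/EBP factors, -0.24 for the paralogues, -0.84 for the ATF4 and CHOP targets and -0.45 for the ATF6 and IRE1 arms.

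Some measures of the samples and the arrays stand beside these differences. All 10 neuroendocrine markers and all 6 epithelial markers were at or above the array median on both arrays, with median differences of -0.09 and -0.04. Single markers differed more and in both directions. The neuroendocrine ones ranged from -0.60 (SNAP25) to 0.68 (DDC) and the epithelial ones from -0.23 (CDH1) to 0.60 (KRT19), on the brightest probe sets. Of the markers of other cell types, 2 of 9 for fibroblasts and stellate cells, 1 of 5 for endothelium and 1 of 5 for leukocytes were at or above the median. The leukocyte markers ranged from 3.56 to 6.12 in ALDH high and from 3.34 to 6.04 in control cells, and LYZ (4.34 in ALDH high, 5.67 in control) and CD14 (4.30 in ALDH high, 5.32 in control) were over 2-fold lower at these low levels. The poly-A control RNAs had a mean difference of 0.32 (SD 0.07, 24 probe sets), and that of the hybridisation controls was 0.05. The 3′ to 5′ ratio of ACTB was 1.83 in ALDH high and 1.67 in control cells, and that of GAPDH was 1.14 in ALDH high and 1.15 in control cells. The part of the leukocyte markers and of the ACTB ratio in the differences was not tested. When all differences were centred on the poly-A controls, the median of the 10 genes moved to -1.33, by the same amount as that of all genes. In bulk RNA, fewer cells expressing a gene and less RNA per cell cannot be told apart.

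**Figure D4:**
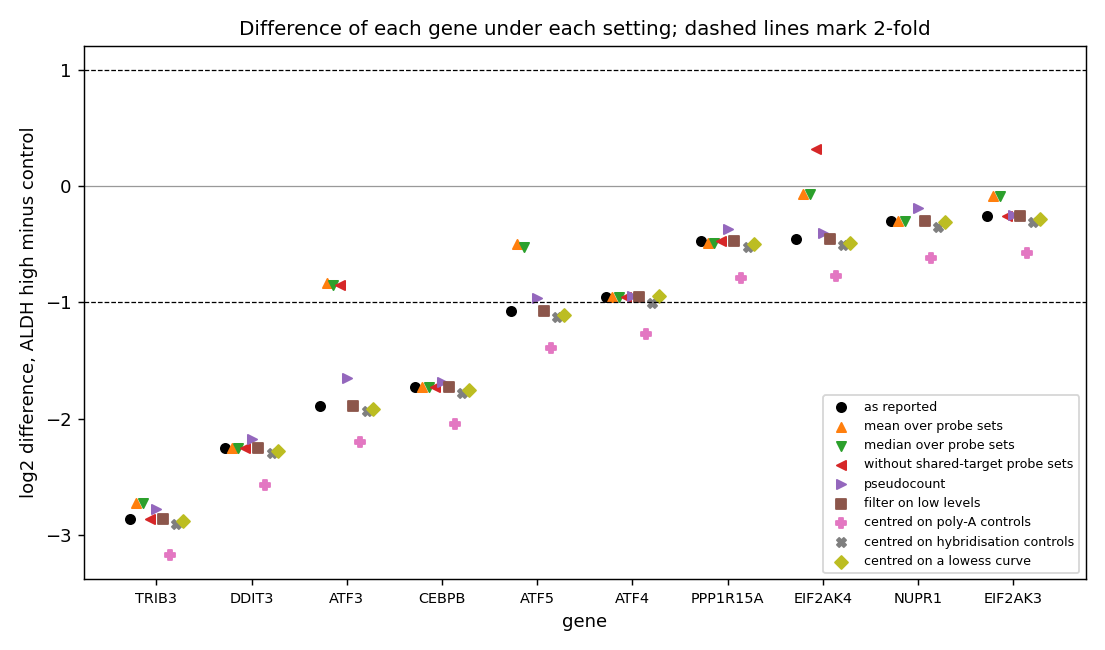
Log2 difference, ALDH high minus control (vertical axis), of each of the 10 genes (horizontal axis) as reported and under 8 other ways of choosing probe sets, filtering and scaling. TRIB3, DDIT3 and CEBPB stay below the lower 2-fold line in each setting shown, ATF3 and ATF5 cross it when probe sets are averaged, and EIF2AK4 reaches 0.32 without shared-target probe sets.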

How the data were processed

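Per the submitters' processing notes, the authors used RMA, and the deposited log2 levels are its output. RMA subtracts a modelled background, brings the arrays to a common distribution and combines the probes of each probe set by median polish. Its version is not given in the sources used. Per the labels' protocols, RNA had an integrity number above 7 and was labelled by 3′ in vitro transcription. Probe sets were named from GEO's platform annotation where it gave 1 symbol (41097 of 54675), checked through Entrez IDs in a RefSeq gene table, and 62 control probe sets were left out of the comparison.

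The log2 difference, ALDH high minus control, was computed in Python 3.11.15 with pandas 2.3.3, without a filter. Each gene was represented by its probe set with the highest mean level. The suffixes _s_at and _x_at mark probe sets whose probes match several transcripts. With 1 array per group no test was made, and the number of arrays limits the precision. No detection calls were used. Alternatives changed the choice of probe sets, the filter, a pseudocount (32 on the linear scale), the scaling and the threshold. The calling step was also run on simulated differences, in which all probe sets of a gene shared the same fold. The simulated noise was set near the spread between probe sets of a gene. That check leaves out the spread between cultures and sorts, so it does not bear on whether the calls would recur.

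The 10 genes and the lists were chosen with earlier results of these data known. Of 111 genes in 6 pathway lists, 106 had a probe set and the others were not analysed here. Named were all 10 genes and, per list, the members over 2-fold (up to 6), with a minimum of 2 genes taken by size of difference, except where the text says otherwise.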

Additional observations from a re-analysis of the deposited data

How the results depend on the processing

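No paired analysis was possible because each group had 1 array. None of the 10 genes was over 2-fold higher under any of the 10 alternatives (no test was made). As a mean over probe sets, as a median over probe sets and without shared-target probe sets, 3 of the 10 genes were over 2-fold lower instead of 5, in each case TRIB3, DDIT3 and CEBPB. The shares of all genes with a value were 0.824%, 0.865% and 1.15% in these settings. Without shared-target probe sets ATF5 and NUPR1 had no value. With a pseudocount the count was 4, against 0.642% of all genes, and ATF5 (-0.96) dropped out. It stayed at 5 with the filter (1.75% of the genes left) and when centred on a curve (1.29%). The count was 6, with ATF4 added, when centred on the poly-A controls (3.02%) or the hybridisation controls (1.41%). At other thresholds it was 6 for 1.5-fold (4.21%) and 4 for 3-fold (0.293%). The median over the 10 genes was -0.67 as a mean over probe sets, -0.69 as a median over probe sets and -1.33 when centred on the poly-A controls. That centring left 597 genes of the array over 2-fold lower and 33 higher, against 243 and 92 as deposited. A pseudocount left 127 lower and 50 higher. Of 78 gene differences under the alternatives, 77 lay below 0, and the exception was EIF2AK4 without shared-target probe sets (0.32). Many of these could not have changed sign. The filter left all 10 differences unchanged, and the pseudocount and both control centrings cannot raise a negative difference above 0. Only another choice of probe sets, or centring on a curve of difference against mean level, could change a sign.

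The count of ATF4 and CHOP targets over 2-fold lower (15) became 24 when centred on the poly-A controls, 25 at a threshold of 1.5-fold and 8 at 3-fold. The count of ATF6 and IRE1 arm genes (2) became 1 as a mean or median over probe sets, without shared-target probe sets and with a pseudocount, 4 when centred on the poly-A controls, 6 at 1.5-fold and 0 at 3-fold. Over all genes, 4.21% were over 1.5-fold lower and 0.293% over 3-fold lower. The share over 2-fold lower was 1.23% as reported and 3.02% when centred on the poly-A controls. The cause of these moves was not tested, apart from the thresholds and the shift by the poly-A controls, which follow from their construction. Levels near or below the array median limit 5 probe sets of the 10 genes, namely that of NUPR1, the second ones of EIF2AK3, EIF2AK4 and PPP1R15A and the dim one of ATF3. They also limit INHBE and JDP2, whose ALDH high levels are below the median.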
